A study of Sus scrofa with 6 samples.

Results

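FLT3 and CSF1R are a pair of growth factor receptors that direct the development of dendritic cells (DC) and of monocytes and macrophages. Their transcripts were followed across 3 sorted subsets of pig blood that the sample labels call DC. The receptors are 2 of the 23 genes that carry a symbol in the array files, which hold 27 probes with a symbol among 41901 probes used. Both were chosen by name, with every spot printed for them on all 6 arrays. FLT3 was read by the probe SS_Pos_ENSSSCG9314 and CSF1R by the probe SS_Pos_ENSSSCG14441, and each of these probes is printed at 5 spots per array. The pig gene identifiers shortened in these names belong to the same symbols in the gene name table, as they did for all 16 of the 27 symbol probes whose identifier the table lists.

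The arrays were custom porcine Agilent arrays hybridised in 1 colour (Cy3), with 2 arrays for each of 3 subsets sorted from peripheral blood of control pigs. Plasmacytoid DC (pDC) were sorted as CD3- CD14- CD4+ cells with intermediate CD172. XCR1+ DC were MHC class II+ CADM1+ cells low in CD172, and XCR1- DC were MHC class II+ CADM1- cells with CD172, both negative for immunoglobulins, CD4 and CD14. The sorting protocol lists high and intermediate CD172 for the latter. The paper left the intermediate cells out of its further analyses after a qPCR check, and the labels do not say which are on these arrays. The pDC were stained with an antibody panel of their own, so subset and panel cannot be told apart for pDC. The donors were adult pigs of both sexes, about 2 years old. RNA of distinct animals was mixed where the amount was low, and the series' design line counts 3 pigs for pDC, 3 for SIRPa+ DC and 1 for CADM1+ DC. The array names carry a letter and number code that the labels do not explain, and 3 arrays share 1 code: pDC replicate 2, XCR1+ DC replicate 1 and XCR1- DC replicate 1. The codes of XCR1+ DC replicate 2 and XCR1- DC replicate 2 differ but have digits in common. It is therefore not known which arrays came from separate animals, and the p-values below measure only the spread between arrays. A sorted subset is a bulk sample, in which fewer cells with a transcript and less transcript per cell cannot be told apart.

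FLT3 and CSF1R are class III receptor tyrosine kinases, a family that also holds KIT and the PDGF receptors. FLT3 binds FLT3 ligand and sustains the progenitors of conventional and plasmacytoid DC, and mature DC keep it on their surface. CSF1R binds CSF1 and IL-34 and is needed for the survival and differentiation of monocytes and macrophages. In the pig RefSeq annotation of assembly Sscrofa11.1, CSF1R is the direct neighbour of PDGFRB, and FLT3 lies between URAD and PAN3.

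The probe sequences are shown because every value below rests on these 60 bases per gene. Capitals mark the 40 bases by which the FLT3 probe and a probe with no gene name in the files are reverse complements of each other. The CSF1R probe has no such partner and is printed in lower case.
FLT3 probe: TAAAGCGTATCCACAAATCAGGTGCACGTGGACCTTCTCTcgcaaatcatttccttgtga
CSF1R probe: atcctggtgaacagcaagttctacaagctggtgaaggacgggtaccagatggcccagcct
Reverse-strand probe: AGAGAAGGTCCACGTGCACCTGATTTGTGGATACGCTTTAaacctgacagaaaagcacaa

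The 2 receptor probes had no run of more than 4 bases in common and were identical at 18 of 60 aligned positions. Their GC content was 45% for FLT3 and 55% for CSF1R. The bases of each probe are also printed once more per array, under a shortened human gene identifier, which gave a second reading of the same sequence. The search for overlaps, in which at least 20 bases in a row had to match, found the named probe and this copy on the same strand for each gene. On the opposite strand it found 1 probe for FLT3 and 0 for CSF1R.

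An array carried 42018 spots for genes beside 1417 controls, and 54.3% to 64.1% of the gene spots were well above background by the scanner software. No spot was saturated. Levels are given as log2 of the background-corrected signal minus the 75th percentile of that array, which lay between 228 and 330 signal units, so a level of 0 is the brightness of that percentile. A level belongs to its own probe, and only its differences between arrays are read. The named markers followed the sort in part. TCF4, the transcription factor of pDC, was 2.82 higher on the log2 scale in pDC than in XCR1+ DC (limma, adjusted p = 0.000932). The chemokine receptor gene XCR1 was well above background on 2 of the 6 arrays, both of XCR1+ DC. BATF3, a transcription factor of cDC1, and CADM1, the sorting marker, were 3.83 and 3.58 higher on the log2 scale in XCR1+ DC than in XCR1- DC (limma, adjusted p = 0.00521 and 0.0324). Each was also detected above background on the 2 arrays of the CADM1- sort. There CADM1 was at -2.41 and -2.90, but BATF3 was bright, at 4.23 and 3.68. BATF3 differed by -4.31 for pDC minus XCR1- DC (limma, adjusted p = 0.00171). CLEC9A, another cDC1 marker, was well above background on 1 array, of pDC, and on neither XCR1+ DC array. CD14, the monocyte marker gated against in every sort, was highest in XCR1- DC and is described beside CSF1R. No marker of B, T or NK cells carried a symbol.

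FLT3 was high on the pDC and XCR1+ DC arrays and lower, but still detected, in XCR1- DC. Its mean signal over the 5 spots was 488 and 355 units on the pDC arrays (replicates 1 and 2). It was 592 and 444 units on the XCR1+ DC arrays, and 117 and 69.0 units on the XCR1- DC arrays. All 5 spots were well above background on each of the 6 arrays, so the low signal of XCR1- DC was a measured level and not a bound.

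On the scaled log2 axis, FLT3 was at 0.86 and 0.64 in pDC, with a mean of 0.75 ± 0.16 (SD, n = 2 arrays). In XCR1+ DC it was at 0.91 and 0.73, with a mean of 0.82 ± 0.12 (SD, n = 2). In XCR1- DC it was at -1.50 and -1.76, with a mean of -1.63 ± 0.19 (SD, n = 2). The pDC and XCR1+ DC arrays interleaved, whereas both XCR1- DC arrays lay below all 4 others. Taken pair by pair and in either direction, non-overlap of arrays was found for 68.4% of all tested probes in pDC against XCR1- DC. The share was 67.6% in XCR1+ DC against XCR1- DC and 66.5% in pDC against XCR1+ DC, so such non-overlap is not particular to FLT3. The share of probes with XCR1- DC apart from both other subsets was not computed. The gap between the 2 arrays of a subset was 0.22 in pDC, 0.17 in XCR1+ DC and 0.27 in XCR1- DC.

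CSF1R was highest in XCR1- DC, where FLT3 was lowest, and had a far wider range. Its mean signal was 4241 and 2625 units on the XCR1- DC arrays. It was 31.6 and 28.4 units on the XCR1+ DC arrays, and 35.1 and 10.5 units on the pDC arrays. The low signals were near the floor of the arrays, where the dimmest spot called well above background had 6.90 to 14.8 units, although all 5 CSF1R spots passed on pDC replicate 1 and both XCR1+ DC arrays, and 4 of 5 on pDC replicate 2. The 153 negative control spots per array had median signals of 1.60 to 3.73 units and a 95th percentile of 2.02 to 4.88 units, below CSF1R on every array. The single brightest control lay below CSF1R on pDC replicate 1 (30.6 units) and XCR1+ DC replicate 1 (9.40 units) and above it on pDC replicate 2 (13.1 units) and XCR1+ DC replicate 2 (35.8 units). Of 12 probes that the array design marks as negative, 2 and 4 were above CSF1R on the pDC arrays. The counts were 4 and 2 on the XCR1+ DC arrays and 1 and 1 on the XCR1- DC arrays. The 12 include a FOXO3 probe, well above background on all 6 arrays. Since each probe has its own brightness, these counts set no floor for CSF1R.

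The scaled CSF1R level was 3.68 and 3.49 in XCR1- DC, with a mean of 3.58 ± 0.14 (SD, n = 2). It was -3.32 and -3.25 in XCR1+ DC, with a mean of -3.28 ± 0.054 (SD, n = 2). In pDC it was -2.95 and -4.48, with a mean of -3.71 ± 1.08 (SD, n = 2). The pDC arrays enclosed the XCR1+ DC arrays, and both XCR1- DC arrays lay above all 4 others. The 2 pDC arrays differed by 1.53, or 2.88-fold, against 0.077 between the XCR1+ DC arrays and 0.20 between the XCR1- DC arrays.

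**Figure D1:**
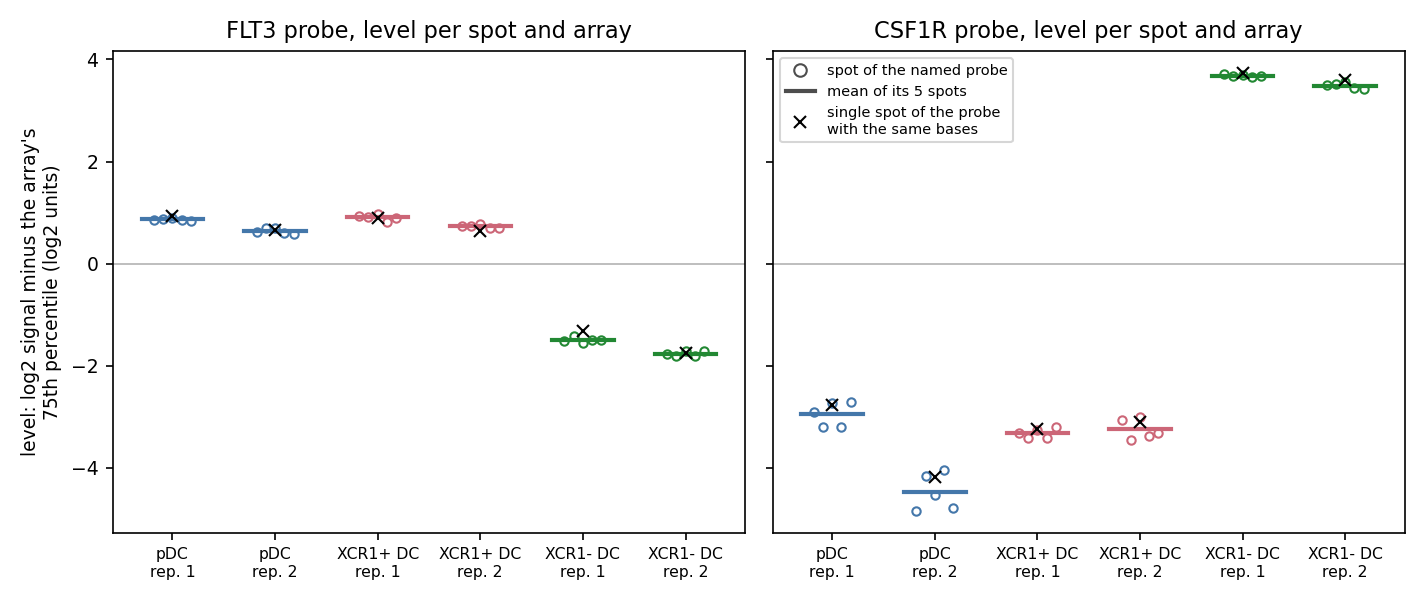
Level of every FLT3 spot (left) and CSF1R spot (right) on the 6 arrays, as log2 signal minus the array's 75th percentile, with the mean of the 5 spots as a bar and the single spot of the probe with the same bases as a cross. FLT3 sits between 0.64 and 0.91 in pDC and XCR1+ DC and at -1.50 and -1.76 in XCR1- DC, while CSF1R is at 3.68 and 3.49 in XCR1- DC and at -2.95 or below elsewhere.

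The 5 spots of a probe lie far apart on the slide and measure the technical error within an array. For FLT3, the SD over the 5 spots was 0.024 to 0.057 on the log2 scale, below the gap between arrays of any subset. The brightest FLT3 spot of an array was 1.21 to 1.44 times the dimmest in raw mean signal and 1.05 to 1.11 times in the processed signal used here. For CSF1R, the SD over spots was 0.025 to 0.37, and the processed brightest spot was 1.05 to 1.75 times the dimmest. The widest CSF1R spread was on pDC replicate 2, the array with the lowest CSF1R signal.

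The second printing of the same bases also placed XCR1- DC lowest for FLT3 and highest for CSF1R. The order of pDC and XCR1+ DC in mean FLT3 turned, to 0.79 and 0.76, a difference within the spread between arrays for either probe. For FLT3 it read 0.93 and 0.65 in pDC, 0.89 and 0.64 in XCR1+ DC, and -1.33 and -1.75 in XCR1- DC. For CSF1R it read -2.77 and -4.18 in pDC, -3.25 and -3.11 in XCR1+ DC, and 3.74 and 3.59 in XCR1- DC. These single spots lay within 0.17 of the FLT3 probe and within 0.29 of the CSF1R probe on every array. The lower CSF1R reading of pDC replicate 2 therefore appeared in 6 spots of the array, and since all use the same RNA these are no further replicates.

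The comparison of pDC with XCR1- DC, and of XCR1+ DC with XCR1- DC, asked whether the receptors set XCR1- DC apart from the other subsets. XCR1 itself was not stained: the subset names are those of the sample labels, and no cell type was assigned from these values. CSF1R and the monocyte marker CD14 were highest in XCR1- DC, so the label does not settle whether these cells are DC. Tests were made with limma over 26371 probes, those well above background on both arrays of 1 or more subsets, among them both receptor probes and the 3 found by sequence. FLT3 was 5.22-fold higher in pDC than in XCR1- DC, a log2 difference of 2.38 with a standard error of 0.24 and a 95% interval of 1.79 to 2.98 (limma, adjusted p = 0.00101). It was 5.46-fold higher in XCR1+ DC than in XCR1- DC, a log2 difference of 2.45 with an interval of 1.86 to 3.04 (limma, adjusted p = 0.00196). Both differences were larger than the spread between arrays, and the lowest array of the higher subset exceeded the highest XCR1- DC array by 2.14 for pDC and 2.23 for XCR1+ DC. With the scan day as a block, which leaves 1 array against 1 for XCR1+ DC and XCR1- DC, that difference was 2.40 and no longer passed (limma, adjusted p = 0.132).

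CSF1R was 157-fold lower in pDC than in XCR1- DC, with a log2 difference of -7.30, a standard error of 0.49 and a 95% interval of -8.49 to -6.11 (limma, adjusted p = 0.000273). It was 117-fold lower in XCR1+ DC than in XCR1- DC, with a log2 difference of -6.87 and an interval of -8.06 to -5.68 (limma, adjusted p = 0.000735). The highest pDC array lay 6.44 below the lowest XCR1- DC array, and the highest XCR1+ DC array 6.73 below it. The folds depend on how dim signals are treated: they were 37.6 and 37.3 with normexp background correction. The fold of pDC was 92.8 without pDC replicate 2 and 267 without pDC replicate 1.

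Both receptors thus passed the test in each comparison with XCR1- DC, in opposite directions, against a background of 32.7% of all tested probes called in pDC against XCR1- DC and 16.1% in XCR1+ DC against XCR1- DC. By direction, 15.7% of tested probes were called higher in pDC, as FLT3 was, and 16.9% higher in XCR1- DC, as CSF1R was. In XCR1+ DC against XCR1- DC these shares were 7.79% in the direction of FLT3 and 8.29% in that of CSF1R. The CSF1R difference ranked 4 of 12435 probes higher in XCR1- DC than in XCR1+ DC, and the probe with the same bases followed at rank 5. Against pDC it was rank 26 of 12372 probes higher in XCR1- DC. FLT3 was less extreme, at rank 827 of 13936 probes higher in XCR1+ DC and rank 1407 of 13999 probes higher in pDC. The median over all tested probes was 0.071 for pDC minus XCR1- DC and 0.046 for XCR1+ DC minus XCR1- DC, small beside either receptor's difference.

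Between pDC and XCR1+ DC, neither receptor passed the test, whereas 28.8% of all tested probes did. FLT3 differed by -0.066 for pDC minus XCR1+ DC, with a standard error of 0.24 and a 95% interval of -0.66 to 0.53, or 0.634-fold to 1.44-fold (limma, adjusted p = 0.859). CSF1R differed by -0.43, with a standard error of 0.49 and an interval of -1.62 to 0.76, or 0.325-fold to 1.69-fold (limma, adjusted p = 0.543). The FLT3 interval thus reached 1.58-fold lower in pDC, and the CSF1R interval 3.07-fold lower. The 2 arrays of pDC decided the CSF1R value between them: it was -1.19 and passed without pDC replicate 1 (limma, adjusted p = 0.0219) and was 0.33 without pDC replicate 2. Each of these fits has a lone pDC array, assumed to vary like the other subsets, whereas the pDC arrays themselves lay 1.53 apart, so the pass rests on that assumption.

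**Figure D2:**
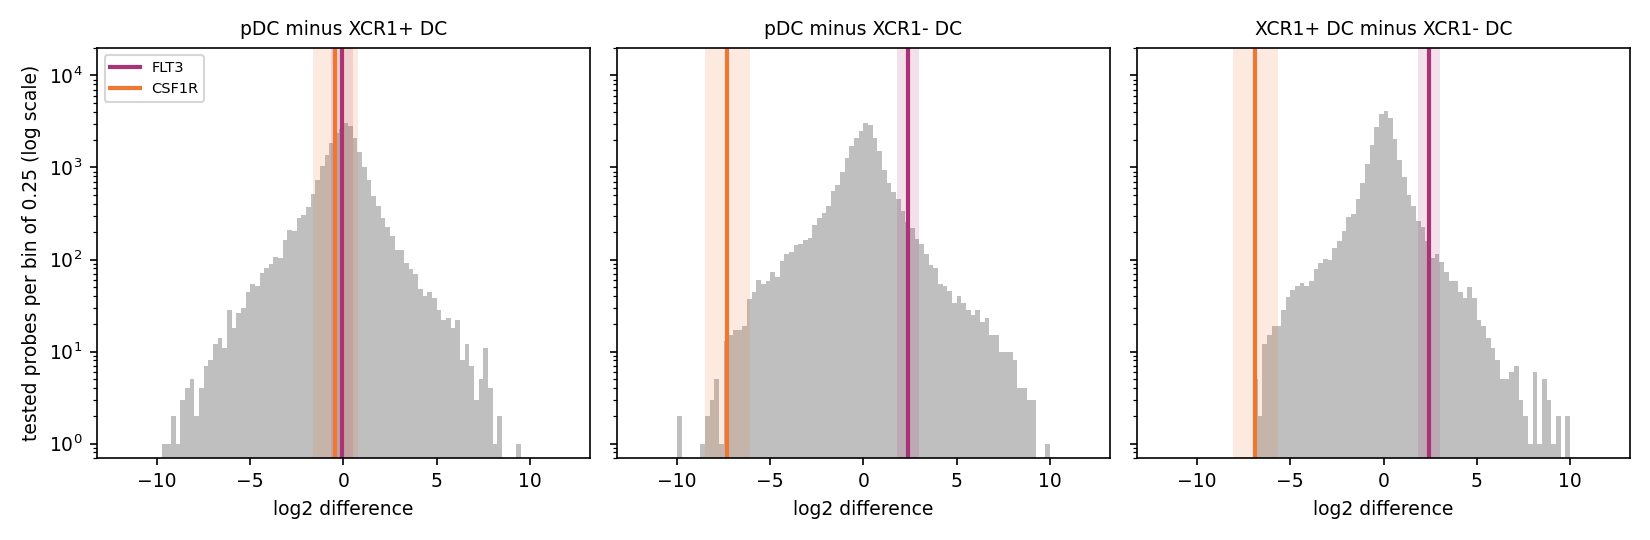
Number of tested probes (log axis) by log2 difference in bins of 0.25, for the 3 comparisons, with FLT3 and CSF1R as lines and their 95% intervals as shading. Both lines lie near 0 for pDC minus XCR1+ DC, and in the comparisons with XCR1- DC they stand on opposite sides, FLT3 at 2.38 and 2.45 and CSF1R at -7.30 and -6.87, in the outer tail.

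The balance of the receptors was taken on each array as the FLT3 level minus the CSF1R level. Because each probe has its own brightness, a balance of 0 carries no meaning and only differences between arrays are read. The balance was 3.82 and 5.12 on the pDC arrays, with a mean of 4.47 ± 0.92 (SD, n = 2). It was 4.23 and 3.98 on the XCR1+ DC arrays, with a mean of 4.10 ± 0.18 (SD, n = 2). It was -5.18 and -5.25 on the XCR1- DC arrays, with a mean of -5.22 ± 0.047 (SD, n = 2). The XCR1- DC arrays were the closest pair of the 3, and the XCR1+ DC arrays lay between the 2 pDC arrays.

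The balance was 9.68 higher in pDC than in XCR1- DC, an 822-fold shift of FLT3 relative to CSF1R, and 9.32 higher, or 638-fold, in XCR1+ DC than in XCR1- DC. These folds rest on dim CSF1R signals: with normexp they were 129-fold and 133-fold, and with a lone pDC array that of pDC was 1290-fold (replicate 2 kept) or 523-fold (replicate 1 kept). In each case the exact permutation test over the 4 arrays gave p = 0.333 (two-sided), which is the smallest p that 2 arrays against 2 allow, so this test could not pass the threshold. The balance of pDC exceeded that of XCR1+ DC by 0.36 (exact permutation test, two-sided, p = 1), within the gap between the pDC arrays. Over the 3 subsets together, the exact test of the spread between means gave p = 0.2 over 90 splits, where the smallest possible p is 0.0667. Most of the shift came from CSF1R, which contributed 7.30 of the 9.68 for pDC and 6.87 of the 9.32 for XCR1+ DC.

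**Figure D3:**
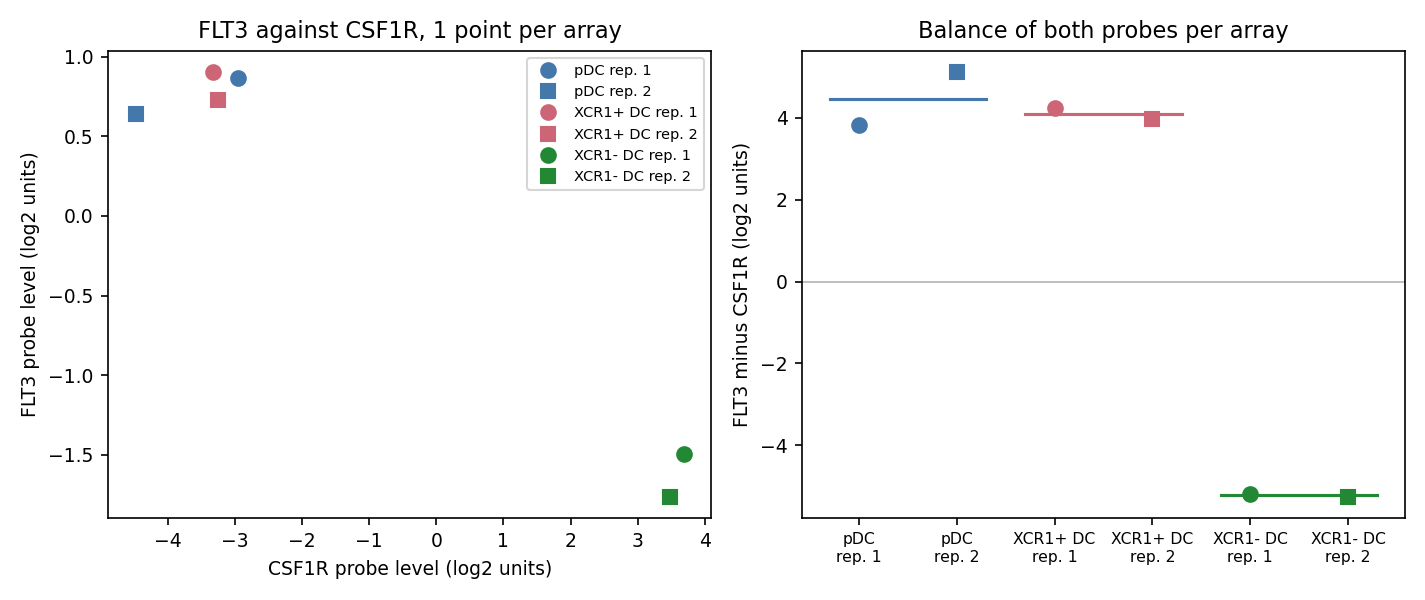
FLT3 level against CSF1R level with 1 point per array (left) and FLT3 minus CSF1R per array (right, bars at the subset means), all in log2 units. The 4 pDC and XCR1+ DC arrays group at high FLT3 and low CSF1R with balances of 3.82 to 5.12, and the 2 XCR1- DC arrays at the opposite corner with balances of -5.18 and -5.25.

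The arrays came from 4 slides, and 2 of them held arrays of different subsets. On slide 1, pDC replicate 1 minus XCR1- DC replicate 1 was 2.36 for FLT3 and -6.64 for CSF1R, a shift of the balance of 511-fold. On slide 2, pDC replicate 2 minus XCR1+ DC replicate 1 was -0.27 for FLT3, -1.15 for CSF1R and 0.89 for the balance. The FLT3 separation of pDC from XCR1- DC within slide 1 was thus close to the 2.38 over all arrays. No slide held both XCR1+ DC and XCR1- DC. Among the 3 arrays that share a code in their names, FLT3 was 2.14 higher in pDC and 2.40 higher in XCR1+ DC than in XCR1- DC, and CSF1R differed by -8.16 and -7.01. With that code as a random block, chosen after seeing the data, both receptors kept their calls.

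CD14, the lipopolysaccharide co-receptor that marks monocytes, was the symbol whose levels were most like those of CSF1R, with a Pearson r of 0.96 over the 6 arrays. This r describes 3 subsets of 2 arrays each and is mostly a difference between subsets. CD14 was at 1.90 and 3.26 in XCR1- DC, at -2.47 and -2.03 in XCR1+ DC, and at -0.73 and -2.66 in pDC. It was lower in pDC than in XCR1- DC, with a log2 difference of -4.28 (limma, adjusted p = 0.00621), and the difference of XCR1+ DC minus XCR1- DC was -4.83 (limma, adjusted p = 0.00755).

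Of 13 listed monocyte and macrophage markers, CD14 alone carries a symbol here, so its level is the whole list's, and its part in the CSF1R result was not tested. CD14+ cells had been gated out of all 3 sorts. Between the pDC arrays, CD14 and CSF1R were both lower in replicate 2, by 1.92 and 1.53. Between the XCR1- DC arrays they moved apart, with CD14 1.36 higher and CSF1R 0.20 lower in replicate 2. The other symbols most like CSF1R were SIRPA, which encodes the sorting marker CD172a, with r = 0.81, and FOXO3, a forkhead transcription factor, with r = 0.69. SIRPA was well above background on 4 of 6 arrays and on neither XCR1+ DC array, so its r rests in part on signals at the floor. The subsets were also gated on CD172, so a SIRPA difference between them was built into the sort.

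No symbol followed FLT3 as closely. The highest r over the 6 arrays was 0.63, for XCR1, followed by 0.61 for DMC1 and 0.54 for IL12A, which were well above background on 2, 1 and 0 arrays, so these values rest largely on signals at the floor. Among the other tested probes, which carry mostly no name, 325 of 26369 (1.23%) had an r of at least 0.95 with FLT3 and 642 (2.43%) with CSF1R. The remaining genes of the pathway could be followed only in part. Of 13 class III receptors and ligands listed, FLT3 and CSF1R alone carry a symbol, and their other kin (KIT, PDGFRA and PDGFRB) and ligands (FLT3LG, CSF1 and IL34) were not analysed here.

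Of 13 listed regulators and receptors of DC development, 3 had a symbol. BATF3, TCF4 and ID2, an inhibitor of TCF4-type factors, were all tested. In pDC against XCR1+ DC, where 28.8% of all tested probes were called, 1 was higher (TCF4) and 2 were lower, and the same counts held in pDC against XCR1- DC, where 32.7% were called. In XCR1+ DC against XCR1- DC, with 16.1% called, 2 were higher and 0 lower, and TCF4 differed by 0.080 (limma, adjusted p = 0.872). TCF4 thus separated pDC from both other subsets, while FLT3 separated XCR1- DC from both others.

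The reverse-strand probe, named A_72_P243537 in the files, gave a signal of its own over the FLT3 sequence. The labelling kit makes antisense copies of RNA, so a probe with the bases of a transcript reads that transcript, and its reverse complement reads RNA of the other strand. Which of these probes has the bases of the FLT3 transcript was not checked, since no pig transcript sequence was used here. The reverse-strand probe is printed at 1 spot, which the software called well above background on each of the 6 arrays.

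In pDC this spot was at -1.38 and -2.61, in XCR1+ DC at 0.23 and 0.38, and in XCR1- DC at -2.78 and -1.91. Both XCR1+ DC arrays lay above the 4 others, and the pDC and XCR1- DC arrays overlapped. Taken pair by pair, 66.5% of all tested probes did not overlap in pDC against XCR1+ DC and 67.6% in XCR1+ DC against XCR1- DC. The reverse-strand spot was 4.92-fold higher in XCR1+ DC than in pDC, with a log2 difference of -2.30 for pDC minus XCR1+ DC (limma, adjusted p = 0.0166). It was 6.28-fold higher in XCR1+ DC than in XCR1- DC, with a log2 difference of 2.65 (limma, adjusted p = 0.0155). In these comparisons 28.8% and 16.1% of all tested probes were called. For pDC minus XCR1- DC the difference was 0.35, with an interval of -0.81 to 1.52 (limma, adjusted p = 0.611). Both calls were lost with few changes: without either XCR1+ DC array the adjusted p against pDC was 0.0609 or 0.0801 (limma), without any of the XCR1+ DC and XCR1- DC arrays that against XCR1- DC was 0.0559 to 0.103, and with the scan day as a block they were 0.123 and 0.154. The folds in these fits were 5.16-fold and 4.68-fold against pDC, 4.66-fold to 8.47-fold against XCR1- DC, and 4.68-fold and 8.07-fold with the scan day. The fold between XCR1+ DC and pDC also depended on the pDC arrays, at 7.52 without replicate 1 and 3.22 without replicate 2.

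The probes differed in where the pDC arrays lay: they overlapped the XCR1+ DC arrays for FLT3 and the XCR1- DC arrays for the reverse strand, and neither of these overlapping pairs of subsets has a settled order. The FLT3 level minus the reverse-strand level was 2.24 and 3.25 in pDC, 0.67 and 0.36 in XCR1+ DC, and 1.28 and 0.15 in XCR1- DC. This difference was 2.23 larger in pDC than in XCR1+ DC and 2.03 larger in pDC than in XCR1- DC, with p = 0.333 in the exact permutation test for both, the smallest that this design can give. For XCR1+ DC minus XCR1- DC it was -0.20 (exact permutation test, p = 1).

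**Figure D4:**
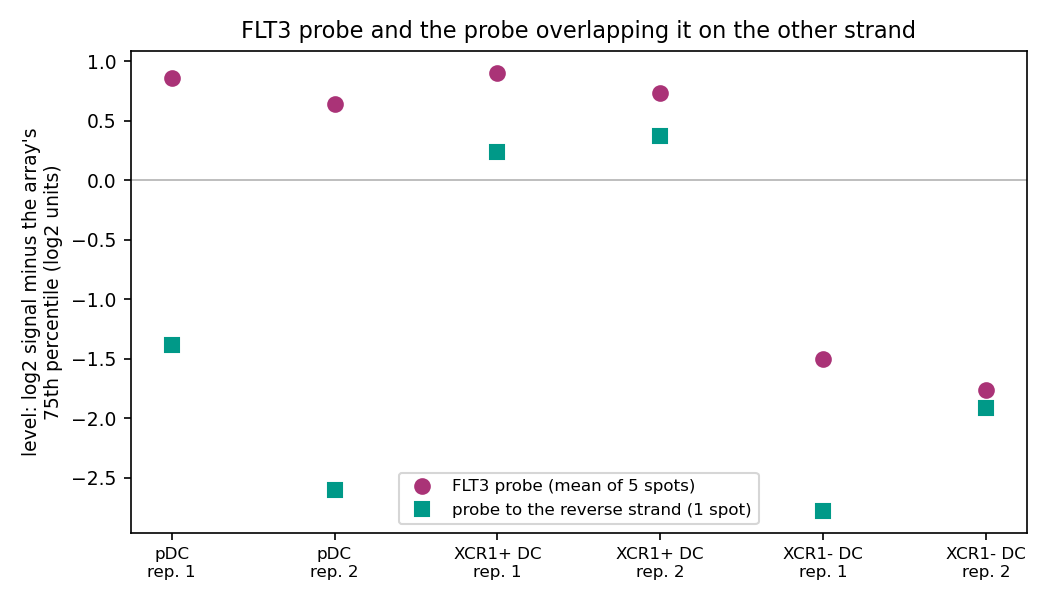
Level of the FLT3 probe (mean of 5 spots) and of the probe that overlaps it on the opposite strand (1 spot) on the 6 arrays, in log2 units relative to the array's 75th percentile. The FLT3 probe is high in pDC and XCR1+ DC, whereas the reverse-strand probe is above 0 on the XCR1+ DC arrays, at 0.23 and 0.38, and between -1.38 and -2.78 on the others.

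The direction of each receptor difference against XCR1- DC was kept under all alternatives run. Leaving out 1 array at a time moved FLT3 between 2.25 and 2.52 in pDC minus XCR1- DC and between 2.32 and 2.58 in XCR1+ DC minus XCR1- DC. It moved CSF1R between -8.06 and -6.54 and between -6.97 and -6.77. With the normalised values that the authors deposited, FLT3 was 4.45-fold and 4.62-fold higher and CSF1R 85.9-fold and 71.1-fold lower in pDC and XCR1+ DC than in XCR1- DC.

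**Figure D5:**
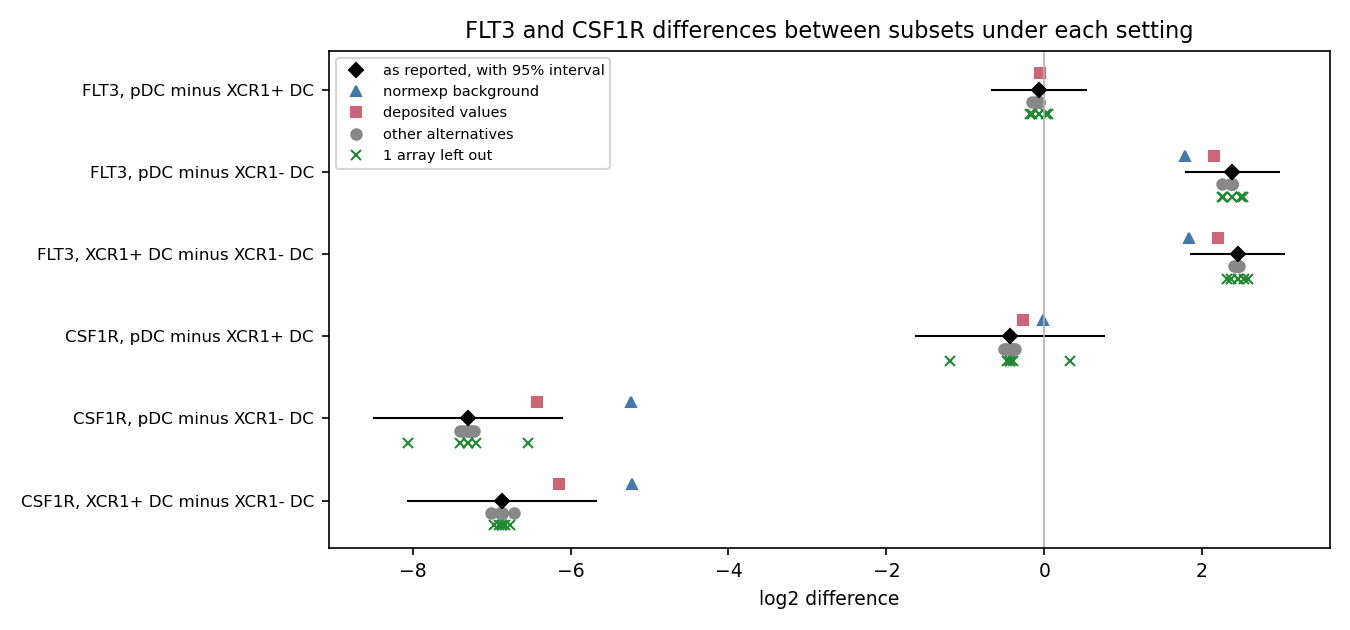
Log2 differences of FLT3 and CSF1R between subsets as reported, with the 95% interval as a line, and under each alternative, including 1 array left out. The FLT3 differences against XCR1- DC stay above 1.78 and those of CSF1R below -5.22, with the normexp values nearest to 0, while between pDC and XCR1+ DC the FLT3 values lie from -0.18 to 0.046 and the CSF1R values from -1.19 to 0.33, above 0 for CSF1R only without pDC replicate 2.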

How the data were processed

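For each array the authors deposited the spot intensity table of Agilent Feature Extraction 10.7.3.1, on a linear scale, and 1 table of normalised log2 values whose scaling is not given in the sources used here. Of its 11 columns, 6 belong to these arrays and served as an alternative, and 5 were not used. From the processed intensities, log2 minus each array's 75th percentile was taken, without control spots and 19 outlier spots, and spots of a probe were averaged. A probe counted as well above background where the majority of its spots did, and probes so on both arrays of at least 1 subset were tested.

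limma 3.58.1 (R 4.3.3) modelled the 3 subsets jointly on 6 arrays (3 residual degrees of freedom), with Benjamini-Hochberg adjustment at 0.05. The few arrays limit precision. This model was tested on simulated data. The balance was tested by exact permutation. Alternatives were normexp (offset 50), quantile normalisation, the deposited values, no filter, a trended prior, slide and replicate blocks, single arrays left out and, added after seeing the data, scan day and the code that array names share. Genes named are the members, listed pathway genes and markers, and the 3 symbols with the highest r with each member. The members and lists were chosen with earlier results of these data known. The probes with the same or complementary bases were added after the files were seen. Same-numbered replicates were not taken as pairs.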

Additional observations from a re-analysis of the deposited data

Results flagged for a closer look

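The probe complementary to 40 bases of the FLT3 probe carries no gene name in the files and belongs to no planned comparison. It drew attention because it was well above background on all 6 arrays, with its highest level, 0.38, on XCR1+ DC replicate 2. Whether it reads RNA of the opposite strand at this locus was not tested.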

How the results depend on the processing

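The number of arrays and, for CSF1R outside XCR1- DC, signals near background limit the precision. In the order pDC against XCR1+ DC, pDC against XCR1- DC, and XCR1+ DC against XCR1- DC, limma called 7597, 8615 and 4239 probes. With the scan day as a block, which uses the 4 arrays of 1 day, these counts were 1979, 2856 and 592, FLT3 in XCR1+ DC minus XCR1- DC was 2.40 (limma, adjusted p = 0.132), and FLT3 in pDC minus XCR1- DC kept its call (limma, adjusted p = 0.0476). Without the filter on dim probes, the first and last counts were 4371 and 2335. Single arrays left out gave 3971 to 8932, 4098 to 10407, and 1332 to 5863 called probes.

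Normexp adds an offset of 50, more than the CSF1R signal of pDC and XCR1+ DC. Under it the balance differences from XCR1- DC were 7.01 for pDC and 7.06 for XCR1+ DC, and the gaps between the nearest arrays were 1.64 and 1.71 for FLT3 and 4.98 and 4.95 for CSF1R. With the deposited values the balance differences were 8.58 and 8.36, the FLT3 gaps 1.90 and 2.00, and the CSF1R gap of XCR1+ DC 6.01, and the cause was not tested.

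The signs between pDC and XCR1+ DC were not stable. Leaving out single arrays gave FLT3 differences from -0.18 to 0.046 (0.046 without pDC replicate 2, 0.021 without XCR1+ DC replicate 1), CSF1R differences from -1.19 to 0.33, and balance differences from -0.29 to 1.02. The balance differences from XCR1- DC then ranged from 9.03 to 10.3 for pDC and from 9.19 to 9.44 for XCR1+ DC. The gaps between the nearest arrays ranged from -0.13 to 0.091, 2.14 to 2.40 and 2.23 to 2.49 for FLT3, and from -0.37 to 1.15, 6.44 to 7.96 and 6.73 to 6.93 for CSF1R.

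The probe with the FLT3 bases, at 0.026 for pDC minus XCR1+ DC, ranged from -0.11 to 0.16 with single arrays left out and changed sign to -0.020 with the slide as a random block, to -0.097 with the scan day as a block and without XCR1+ DC replicate 2, and to -0.11 without pDC replicate 1. With the scan day as a block its differences from XCR1- DC were 2.11 and 2.21, close to 2.33 and 2.30 without it, with adjusted p of 0.0578 and 0.168 (limma). The probe with the CSF1R bases ranged from -1.003 to 0.41 and turned to 0.41 for pDC minus XCR1+ DC without pDC replicate 2. The reverse-strand probe in pDC minus XCR1- DC ranged from -0.26 to 0.97 and turned to -0.26 without pDC replicate 1 and to -0.079 without XCR1- DC replicate 1.

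The deviations of same-numbered arrays from their subset means correlated at 0.023 for pDC with XCR1+ DC and 0.12 for pDC with XCR1- DC. The correlation was 0.38 for XCR1+ DC with XCR1- DC, and the numbers were not taken as pairs. A fit with replicate number as block called 7541, 8491 and 4095 probes. In it FLT3 and CSF1R kept their differences and their side of the threshold, with adjusted p of 0.84, 0.00207 and 0.00411 for FLT3 and 0.495, 0.000817 and 0.00211 for CSF1R (limma). For pDC the replicate number does not follow the code that array names share, so this fit cannot address animals in common.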
